A study of Homo sapiens with 18 samples.

Results

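The enzymes that make serine from glucose and pass its carbon to folate were examined in ChIP-seq peak lists of MDA-MB-231, an established human line of triple-negative breast cancer. The group held 10 named genes, PHGDH, PSAT1, PSPH, SHMT1, SHMT2, MTHFD1, MTHFD1L, MTHFD2, GCSH and GLDC, of the 19974 genes annotated as protein-coding on the autosomes and X. They were chosen by name, and every peak of 6 targets that overlapped a gene's RefSeq record or 10 kb either side of it was taken. ChIP libraries of KDM2B, MYC, ATF4, H3K4me3, H3K27me3 and H2AK119ub came from parental cells, those of H3K27ac from cells carrying an empty vector, and input DNA from both stocks. These were 18 libraries in 9 groups of 2, with no treatment or other genotype in the labels. The ATF4 libraries were not analysed here.

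KDM2B is a histone demethylase with a zinc finger that binds unmethylated CpG, and it recruits a variant PRC1 complex that ubiquitinates H2AK119. H3K4me3 marks active promoters and H3K27ac active promoters and enhancers, while H3K27me3 is laid down by PRC2. MYC binds the E-box and drives biosynthetic genes. PHGDH, PSAT1 and PSPH convert a glycolytic intermediate to serine in consecutive steps. SHMT2 in mitochondria and SHMT1 in the cytosol split serine into glycine and a carbon unit on tetrahydrofolate. MTHFD2 and MTHFD1L turn that unit into formate in mitochondria, and MTHFD1 takes formate up again in the cytosol. GLDC and GCSH are parts of the mitochondrial glycine cleavage system. MDA-MB-231 is commonly used as a breast cancer line with low PHGDH expression. Serine enzymes are also known targets of ATF4.

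The sequences at the starts of these genes show what the KDM2B and MYC summits lie beside. RefSeq promoters of GRCh38.p14, from 250 bases before to 50 bases after the start, were matched for 8 of the 10 genes; PSPH and SHMT2 are named only. The promoters shown are of the 4 genes whose KDM2B and MYC summits together lay nearest to a start, MTHFD1L (chr6:150866083-150866382, + strand), MTHFD2 (chr2:74198365-74198664, + strand), GCSH (chr16:81096346-81096645, − strand) and SHMT1 (chr17:18363501-18363800, − strand), and of GLDC (chr9:6645680-6645979, − strand), which had no KDM2B peak. All are written 5′ to 3′ on the gene's strand, and capitals mark CpG.
MTHFD1L: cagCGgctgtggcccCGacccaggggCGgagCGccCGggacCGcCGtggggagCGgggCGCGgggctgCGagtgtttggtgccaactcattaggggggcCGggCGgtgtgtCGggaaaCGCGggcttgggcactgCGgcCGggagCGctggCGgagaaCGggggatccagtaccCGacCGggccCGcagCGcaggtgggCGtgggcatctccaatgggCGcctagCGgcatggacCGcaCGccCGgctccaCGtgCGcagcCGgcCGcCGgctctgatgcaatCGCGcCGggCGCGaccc
MTHFD2: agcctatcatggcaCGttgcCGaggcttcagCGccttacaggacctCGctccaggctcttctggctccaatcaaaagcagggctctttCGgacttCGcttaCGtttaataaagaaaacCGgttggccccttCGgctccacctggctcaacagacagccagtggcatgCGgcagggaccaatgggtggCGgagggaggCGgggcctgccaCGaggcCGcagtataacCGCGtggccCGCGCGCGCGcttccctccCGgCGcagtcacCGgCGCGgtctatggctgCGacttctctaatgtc
GCSH: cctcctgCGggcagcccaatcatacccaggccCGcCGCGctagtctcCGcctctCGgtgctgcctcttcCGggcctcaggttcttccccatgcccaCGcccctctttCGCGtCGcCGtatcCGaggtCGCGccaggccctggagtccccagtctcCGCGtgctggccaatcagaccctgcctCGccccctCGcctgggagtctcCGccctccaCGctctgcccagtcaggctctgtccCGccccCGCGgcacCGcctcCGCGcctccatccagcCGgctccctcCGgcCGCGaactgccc
SHMT1: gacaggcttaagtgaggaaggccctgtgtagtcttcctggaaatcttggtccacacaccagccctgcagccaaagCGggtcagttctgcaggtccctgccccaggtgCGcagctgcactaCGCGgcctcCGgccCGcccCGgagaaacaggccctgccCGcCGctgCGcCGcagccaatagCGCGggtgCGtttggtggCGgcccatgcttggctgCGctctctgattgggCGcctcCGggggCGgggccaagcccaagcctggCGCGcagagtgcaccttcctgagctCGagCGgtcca
GLDC: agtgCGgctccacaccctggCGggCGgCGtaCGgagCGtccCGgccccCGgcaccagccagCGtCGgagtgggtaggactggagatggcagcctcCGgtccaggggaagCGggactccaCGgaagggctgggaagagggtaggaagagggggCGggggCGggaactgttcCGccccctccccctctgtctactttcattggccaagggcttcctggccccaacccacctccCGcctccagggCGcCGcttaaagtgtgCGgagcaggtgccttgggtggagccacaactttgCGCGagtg

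CpG was counted in the same 300 bases of each promoter. The MTHFD1L promoter held 41 CpG, PSAT1 37, GCSH 31, MTHFD2 27, SHMT1 23, GLDC 22, MTHFD1 20 and PHGDH 15. The median was 21 over 22132 promoters of protein-coding genes and 14 over all 35116 promoters of the table. The KDM2B summits of the 7 genes with a start and a peak lie outside these bases, and CpG under the peaks was not counted. MTHFD1L has 3 further annotated starts: at 150866447 and 150866486 the promoter held 40 CpG each, and at the internal start 151007008 it held 5.

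An E-box of the letters CACGTG, which reads the same on both strands, was found in the promoters of MTHFD1 and MTHFD1L and in none of the other 6 genes. It is in 7.26% of all promoters of the table and in 8.34% of those of protein-coding genes. The ATF4 and C/EBP composite element, searched as TGATGNAA on both strands with no overlap with the E-box, was found at MTHFD1L alone, against 3.62% of all promoters and 2.7% of those of protein-coding genes. The matches are shown with 15 bases either side, with the motif in capitals, on the + strand at chr14:64388323-64388358, chr6:150866317-150866352 and chr6:150866342-150866379.
MTHFD1, E-box: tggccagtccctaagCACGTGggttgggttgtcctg
MTHFD1L, E-box: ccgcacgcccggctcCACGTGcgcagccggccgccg
MTHFD1L, composite element: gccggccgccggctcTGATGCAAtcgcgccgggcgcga
The E-box of MTHFD1L lay 19 bp from the MYC summit and that of MTHFD1, at 64388338 to 64388343, was below the MYC summit at 64388462. A match is only a run of letters, and its absence says nothing of the factor outside these 300 bases.

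Values below are the authors' fold enrichment at a peak, a ratio of signal over background that ranks peaks only within its own list. Because each target has 1 deposited list, values carry no replicate error and no test over libraries could be made. Counts of genes are given beside the same count over all genes. Without read counts in the lists, depth is unknown. The lists ran from 20018 peaks for KDM2B to 306484 for H3K27me3.

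KDM2B, MYC, H3K4me3 and H3K27ac were found at nearly every gene of the group, and GLDC, with only H3K27ac of these, was the exception. KDM2B had a peak in the record or 10 kb either side of 9 of the 10 genes, against 59.4% of all genes. MYC had one at 9 (78.7% of all genes), H3K4me3 at 9 (82.6%) and H3K27ac at all 10 (78.2%). MYC, H3K4me3 and H3K27ac were thus found at most genes in general, and not only in this group. The Polycomb marks were less general: H2AK119ub was at 5 of the 10 (68% of all genes) and H3K27me3 at 5 (50.1%), shares at or below those of all genes.

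Each gene was then read at its leading site, the H3K4me3 peak of highest fold overlapping the record or 1 kb either side, which finds a promoter inside a record as well as one at its end. A leading site was present at 9 of the 10 genes, against 77.3% of all genes, and GLDC had none. At those 9 sites KDM2B was present at 9 (69% of all genes with a leading site), MYC at 9 (91%) and H3K27ac at 9 (89.8%). H2AK119ub was at 4 (39.7%) and H3K27me3 at 3 (12.5%). KDM2B, MYC, H3K4me3 and H3K27ac without a Polycomb mark was the combination at PSAT1, PSPH, MTHFD2, MTHFD1L and GCSH, and at 28.5% of all genes. MTHFD1 added H2AK119ub, as did 18.3% of all genes, and PHGDH, SHMT1 and SHMT2 had all 6 targets, as did 4.2%. H3K27ac was measured in the empty-vector stock, so its overlap with the other targets is between cell stocks. As a check of the line, the mesenchymal gene VIM had H3K4me3 of fold 48.6 and H3K27ac of 75.9 at its leading site, while the receptor genes ESR1 and PGR had H3K4me3 of 17.2 and 13.9 and ERBB2 44.0. H3K27ac there was 2.47 at ESR1 and 12.2 at ERBB2, and PGR had none.

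These Polycomb calls depended on how far the leading site was taken to extend. With the leading site cut to the record and 1 kb either side, a choice made after seeing the data, KDM2B, MYC and H3K27ac were still at all 9 sites (64.5%, 88.1% and 87.9% of all genes with a site). H2AK119ub was then at PHGDH, MTHFD1 and SHMT2 (35.4% of all genes) and H3K27me3 at PHGDH alone (9.18%). The leading site also held the highest KDM2B peak of the window at 8 of 9 genes (82.2% of all genes with both). It held the highest MYC peak at 9 of 9 (79%) and the highest H3K27ac peak at 7 of 9 (73.9%). For H2AK119ub it did so at 1 of 5 (23.9%) and for H3K27me3 at 0 of 4 (6.19%).

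Within 1 kb of an annotated start, which 8 of the genes have, KDM2B, MYC, H3K4me3 and H3K27ac were each at 7, against 49.8%, 66.2%, 70.7% and 65.6% of 15812 genes. There, H2AK119ub was at MTHFD1 alone (34.5% of genes) and H3K27me3 at PHGDH alone (20.7%).

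**Figure D1:**
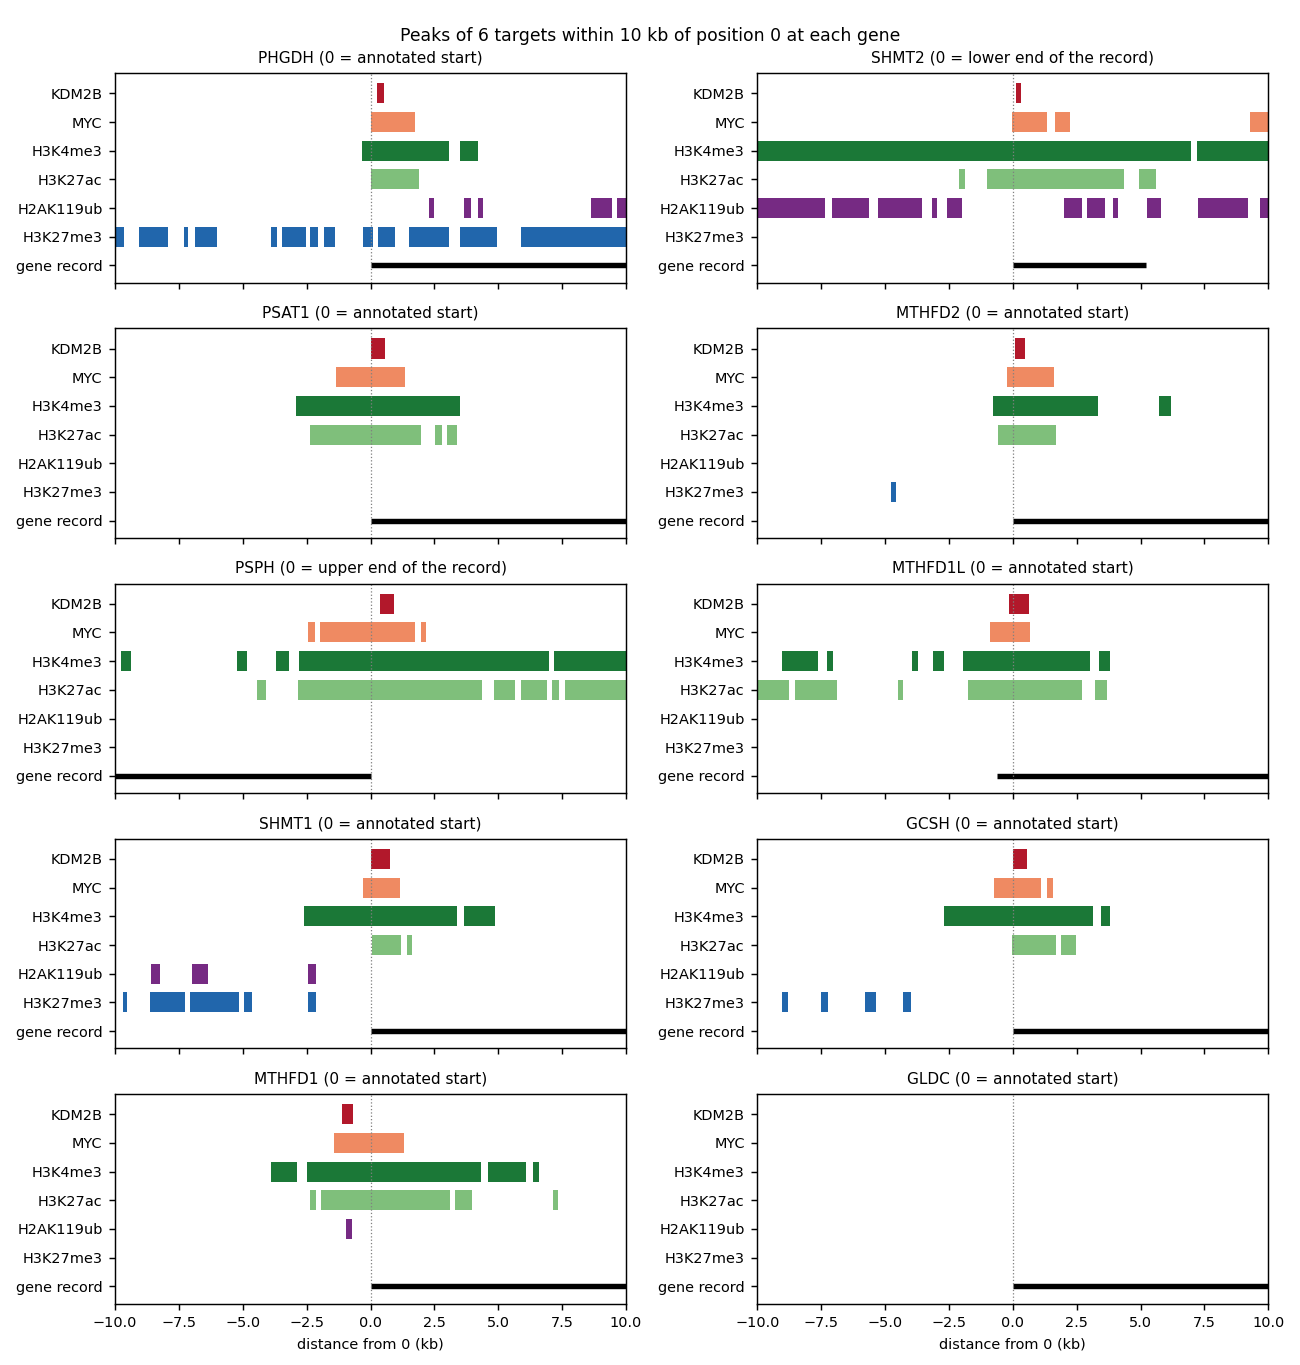
Peaks of each target (rows, coloured bars) within 10 kb of the start of the 10 genes, in kb along the gene's strand where the start is annotated; for PSPH and SHMT2, whose strand the table does not give, 0 is the upper and lower end of the record and the axis follows the genome. KDM2B and MYC sit close to 0 in 9 panels, GLDC has no peak within 10 kb of its start, and H3K27me3 surrounds the start of PHGDH.

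The 3 genes of serine synthesis all had KDM2B and MYC at their leading sites, with low folds at PHGDH and a PSPH site that is shared with a neighbouring gene. PHGDH, the first and committed step, had the lowest fold of the 9 sites for KDM2B (2.42), MYC (5.21), H3K4me3 (18.2) and H3K27ac (9.81). Only 1.90% of genes with KDM2B at their leading site had a lower KDM2B fold. For MYC the share of genes with a lower fold was 13.9%, for H3K4me3 16.1% and for H3K27ac 17.7%. Its KDM2B peak, with −log10 q of 1.92, is absent at q under 1e-5.

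PSAT1, the transaminase that follows, had KDM2B of fold 4.28, MYC of 36.3, H3K4me3 of 60.2 and H3K27ac of 45.0. Its MYC fold was the highest of the group, above that of 96.2% of genes, whereas its KDM2B fold stood above 58.8%. The 2 factors thus took different ranks at the same start: the KDM2B peak ran from 8 to 545 bp downstream of it, inside the MYC peak. PSAT1 had 1 peak each of KDM2B, MYC and H3K4me3 in its window, and no H2AK119ub or H3K27me3.

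PSPH, the phosphatase that releases serine, had a leading site with the highest fold of the 9 for KDM2B (7.65), H3K4me3 (64.3) and H3K27ac (85.0), with MYC at 23.6. The KDM2B fold exceeded that of 98.8% of genes and the H3K27ac fold that of 98.5%. That KDM2B peak, chr7:56051816-56052368, lies above the upper end of PSPH (56011064 to 56051444) and inside the neighbouring CCT6A (56051765 to 56063989), which encodes a chaperonin subunit, so it cannot be given to either gene. The H3K4me3 and H3K27ac summits of the site, at 56052040, also lie inside CCT6A. A further site inside the PSPH record, with no other annotated gene, held H3K4me3 of fold 38.5 at 56030076 to 56037652. It carried KDM2B of fold 3.52, MYC of 9.13 and H3K27ac of 11.6. Their summits, at 56034045, 56034043 and 56033849, lay close together. PSPH thus had 2 sites with KDM2B and MYC, the higher at the boundary with CCT6A and the lower within its own record.

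**Figure D2:**
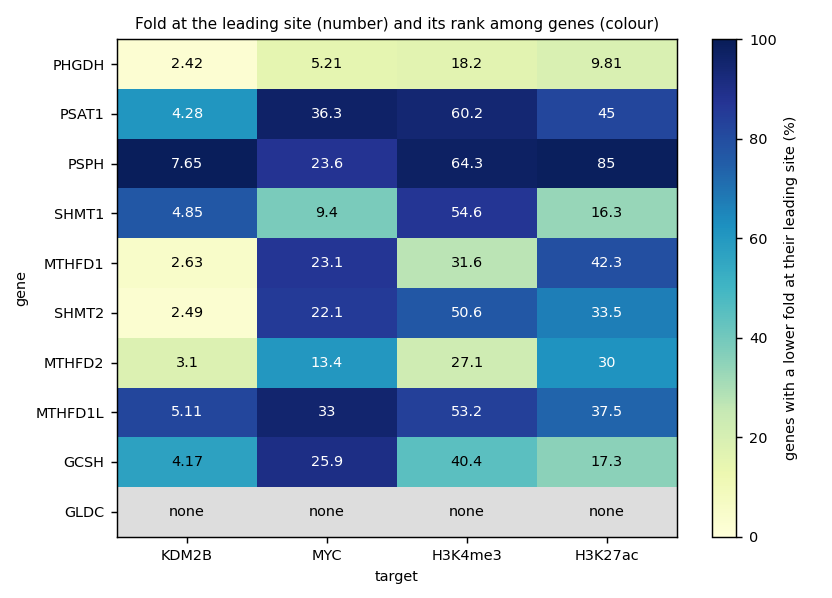
Authors' fold at the leading site (printed in each cell) of KDM2B, MYC, H3K4me3 and H3K27ac (columns) for the 10 genes (rows), with leading sites cut to the record and 1 kb either side; colour is the percentage of genes with a lower fold of that target at their own leading site. PHGDH is pale in all 4 columns, PSPH, whose site is shared with CCT6A, is dark in all 4, MTHFD1 and SHMT2 (2.49, against 6.09 with the uncut site) are pale for KDM2B and dark for MYC, and GLDC has no leading site.

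Both serine hydroxymethyltransferases had KDM2B and MYC at their leading sites. The cytosolic SHMT1 (chromosome 17, 18327873 to 18363550) had KDM2B of fold 4.85, above that of 74.96% of genes, and MYC of 9.40, above that of 36.8%. H3K4me3 was strong at 54.6 while H3K27ac was 16.3, above that of 32.1% of genes. The highest H3K27ac peak of its window, of fold 29.7, belonged to the other end, between TOP3A and SMCR8. H2AK119ub and H3K27me3 touched the SHMT1 site only at its upstream edge: the H2AK119ub peak ran from 2463 to 2136 bp upstream of the start and the H3K27me3 peak from 2459 to 2131 bp upstream.

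The mitochondrial SHMT2 (chromosome 12, 57229711 to 57234935) had MYC of fold 22.1, above that of 84.2% of genes. Its KDM2B value depended on where the site was taken to end. Over the whole leading site the highest KDM2B fold was 6.09, above that of 93.2% of genes, so KDM2B and MYC both ranked high. With cut sites it was 2.49, from the peak inside the record at 57229828 to 57230017, and 2.90% of genes had a lower one, against 85.4% for MYC. For SHMT1 the cut-site shares were 76.6% for KDM2B and 38.7% for MYC. H3K4me3 and H3K27ac folds were 50.6 and 33.5. The H3K4me3 peak was 23146 bp wide, wider than the leading sites of 97.9% of genes, and spanned NXPH4 (57216794 to 57226449), and the KDM2B peak of fold 6.09, at 57215670 to 57216712, lay just below NXPH4. That KDM2B peak and the H3K27me3 peak of fold 2.46 at 57215685 to 57215995 lie more than 10 kb below SHMT2, and the H3K27me3 call of the uncut site comes from that peak.

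The folate enzymes that follow had KDM2B and MYC at their starts, with KDM2B displaced at MTHFD1. MTHFD2, the mitochondrial dehydrogenase and cyclohydrolase, had KDM2B of fold 3.10, MYC of 13.4, H3K4me3 of 27.1 and H3K27ac of 30.0. MTHFD1L, the mitochondrial formate ligase, had 5.11, 33.0, 53.2 and 37.5 for the same targets in that order. Its MYC fold exceeded that of 94.8% of genes and its KDM2B fold that of 80.4%, so both factors ranked high there.

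MTHFD1, the cytosolic enzyme, had MYC of fold 23.1 (above 85.7% of genes) and H3K27ac of 42.3 beside KDM2B of 2.63 (above 4.39%). The KDM2B peak, from 1108 to 696 bp upstream of the start, was the only one of the 7 with an annotated start whose summit was upstream. The single H2AK119ub peak of the MTHFD1 window, of fold 2.41, lay inside that KDM2B peak, at 64387374 to 64387635. Both were weak calls, with −log10 q of 2.86 for H2AK119ub and 2.43 for KDM2B, and both are absent at q under 1e-5. With cut sites, H2AK119ub overlapped the leading KDM2B peak of MTHFD1 alone among the 9 genes, against 21% of all genes with such a peak. H3K27me3 overlapped that of PHGDH alone, against 2.68%, and both peaks of that overlap are absent at q under 1e-5.

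GCSH, whose protein carries the lipoate arm of glycine cleavage, had KDM2B of fold 4.17, MYC of 25.9, H3K4me3 of 40.4 and H3K27ac of 17.3. Its MYC fold exceeded that of 89.5% of genes, while H3K27ac exceeded that of 34.2%. An H3K27ac peak of nearly the same height, 17.4, lay in the flank at C16orf46.

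GLDC, which decarboxylates glycine, had none of KDM2B, MYC, H3K4me3 or H2AK119ub in its record (chromosome 9, 6532467 to 6645729) or 10 kb either side. Its record is 113263 bp long, against a median of 24170.5 bp over all genes. Of all genes 22, or 0.11%, GLDC included, had the same pair of H3K27ac and H3K27me3 and nothing else in that window. The 4 H3K27ac peaks lay 76136 to 82852 bp downstream of the start, with folds of 14.9, 10.4, 2.47 and 1.96. The 1 H3K27me3 peak, 277 bp long with a fold of 2.08, lay 22542 bp downstream. It was a weak call, with −log10 q of 2.01, and is absent at q under 1e-5, where GLDC no longer has that pair. No peak of any target lay within 10 kb of the start.

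KDM2B and MYC summits were close together at most of these sites, as they were over all genes. The distance between them was 377 bp at PHGDH, 171 bp at PSAT1, 61 bp at PSPH, 14 bp at SHMT1, 1155 bp at MTHFD1, 95 bp at MTHFD2, 456 bp at MTHFD1L and 131 bp at GCSH. At SHMT2 it was 38 bp with the cut site and 13473 bp with the peak at NXPH4. With cut sites it was under 500 bp at 8 of 9 genes, against 77.8% of all genes, and the KDM2B peak lay wholly inside the MYC peak at 9 of 9, against 89.9%. With uncut sites these counts were 7 (74.7% of all genes) and 8 (86.2%), and the median distance over all genes was 149 bp.

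Both summits usually lay just downstream of the start. KDM2B was 258 bp downstream at PHGDH, 353 bp at PSAT1, 250 bp at SHMT1, 218 bp at MTHFD2, 283 bp at MTHFD1L and 152 bp at GCSH, and 1046 bp upstream at MTHFD1. It was downstream at 6 of 7, against 71.8% of all genes, whose median was 164 bp. All 6 of those summits lie beyond the 50 bases after the start that the promoter sequences include. MYC was 635, 182, 236, 109, 123 and 283 bp downstream at PHGDH, PSAT1, SHMT1, MTHFD1, MTHFD2 and GCSH, and 20 bp upstream at MTHFD1L. Thus 6 of 7 were downstream for MYC also, against 63.3% of all genes. The nearest start was taken for each summit separately. At MTHFD1L this was 150866486 for KDM2B and 150866333 for MYC, and from the latter start the KDM2B summit lay 436 bp downstream.

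Some summits of different lists fell on the same base, as they did at few genes. At PSPH the MYC, H3K4me3 and H3K27ac summits were all at chr7:56052040, as at 0.509% of leading sites with MYC and H3K27ac. MYC and H3K4me3 shared a summit at 2 of the 9 genes, PSPH and SHMT2 (chr12:57229970), against 2.8% of leading sites with MYC. The KDM2B and H3K27ac summits of SHMT2 were both at chr12:57229932. The inputs were not set beside these bases, and what the shared bases come from was not tested.

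**Figure D3:**
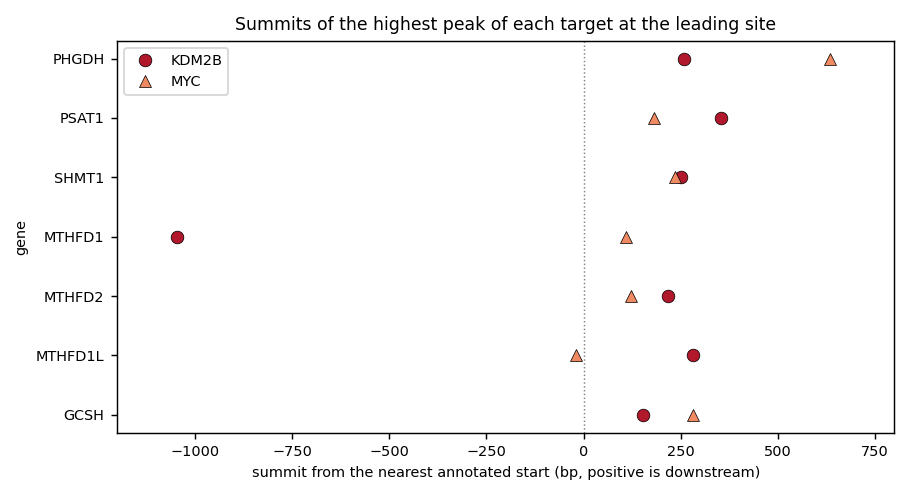
Position of the KDM2B summit (circles) and the MYC summit (triangles) of highest fold at the leading site, in bp from the nearest annotated start, for the 7 genes with a start and a leading site. Of the KDM2B summits 6 lie 152 to 353 bp downstream, and that of MTHFD1 lies 1046 bp upstream. The nearest start is taken for each summit separately, and at MTHFD1L it differs between KDM2B and MYC.

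Of the Polycomb marks, H3K27me3 covered most at PHGDH and H2AK119ub most around SHMT2, with smaller shares or none at the other genes. H3K27me3 peaks covered 79.3% of the PHGDH record and 10 kb either side, 41458 bp in 21 peaks, more than at 95.7% of genes. H2AK119ub covered 29.8% of the same span, 15600 bp in 27 peaks. The median over all genes was 0.0469% for H3K27me3 and 2.36% for H2AK119ub, with 90th percentiles of 56.7% and 44.9%.

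At the start of PHGDH the H3K27me3 peaks lay on the same bases as the active marks. One ran from 300 bp before to 100 bp after the start with a fold of 1.92, the next from 304 to 970 bp with 2.61, and the next from 1506 to 3072 bp with 3.50. The KDM2B peak, 241 to 506 bp, overlapped the second of these, and MYC, 21 to 1747 bp, overlapped all 3. The first and second H3K27me3 peaks had −log10 q of 2.27 and 4.94 and are absent at q under 1e-5. The KDM2B peak is absent there too, while the third H3K27me3 peak, with −log10 q of 9.78, is kept. The longest H3K27me3 peak, of fold 4.52, ran from 21798 to 32075 bp, near the end of the record. H2AK119ub began only at 2280 bp. Whether the active marks and H3K27me3 were on the same molecules, cells or alleles was not tested.

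H2AK119ub covered 58.5% of the SHMT2 window, above that of 94.9% of genes, and H3K27me3 covered 0. The longest H2AK119ub peaks that overlapped the window lay over NXPH4 (5312 bp, fold 3.70) and across the end of COXFA4L2 (3642 bp, fold 3.90). The NXPH4 peak lay in part below the window, and that part is not in the share. The SHMT2 record itself was covered over 30.3% of its length. No H2AK119ub peak lay between 1988 bp below and 2019 bp above the lower end of the SHMT2 record, where its KDM2B and MYC summits are.

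At the remaining genes each mark covered less than at PHGDH. SHMT1 had 8.69% H2AK119ub and 7.48% H3K27me3, more than at 63.7% and 69.2% of genes. Of its 12 H2AK119ub peaks 5 overlapped its record, and none of the H3K27me3 did. MTHFD2 had 1.83% and 18.2%, the latter more than at 77.3% of genes. Of its 10 H3K27me3 peaks 8 were outside the record, 7 of them on the side of SLC4A5. GCSH had 0 and 3.59%, in 4 peaks upstream of the record. MTHFD1 had 0.286% H2AK119ub alone and GLDC 0.208% H3K27me3 alone. PSAT1, PSPH and MTHFD1L had neither mark over their windows of 52969, 60381 and 256186 bp. H2AK119ub coverage was above the median of all genes at 3 of the 10 and H3K27me3 coverage at 5, where 50% of all genes are.

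Beyond the starts, H3K27ac was spread through the 2 longest folate genes. MTHFD1L (chromosome 6, 150865702 to 151101887) had 35 H3K27ac peaks that covered 19.3% of its window. With peaks joined across gaps of up to 3 kb, its longest acetylated stretch was 45.6 kb, from 161 to 206 kb downstream of the start, made of 17 peaks. A longer stretch was found in the window of 1.62% of all genes. That share is not adjusted for length, and the MTHFD1L record is 236186 bp long, against a median of 24170.5 bp over all genes. The highest peaks of that stretch had folds of 24.9, 23.6, 19.0 and 16.6, against 37.5 at the start, and it held 5 MYC peaks of fold 3.91 to 5.98 and 9 H3K4me3 peaks but no KDM2B.

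MTHFD1 had 12 H3K27ac peaks away from its leading site, the highest of fold 25.6 at 47759 to 52791 bp downstream, and 4 of the 12 overlapped MYC. The KDM2B peak of fold 2.401 among these, at 76760 to 77451 bp, lay at AKAP5. Counted over the 10 genes, 52 H3K27ac peaks lay away from the leading site of any gene. Most were at MTHFD1L, with 34 H3K27ac peaks off its own leading site, and MTHFD1, with 12. MYC overlapped 8 of the 52 and KDM2B 1, against 21.1% and 3.14% of 47423 such peaks around all genes. H3K4me3 overlapped 13, against 37.7%. Off their own leading sites, MTHFD1, PSPH and SHMT1 each had 1 H3K27ac peak with KDM2B. The count over the 52 does not say which of these it holds. KDM2B was thus seldom found at acetylated peaks away from leading sites over all genes, and the 52 peaks mostly describe MTHFD1L and MTHFD1 rather than the group.

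**Figure D4:**
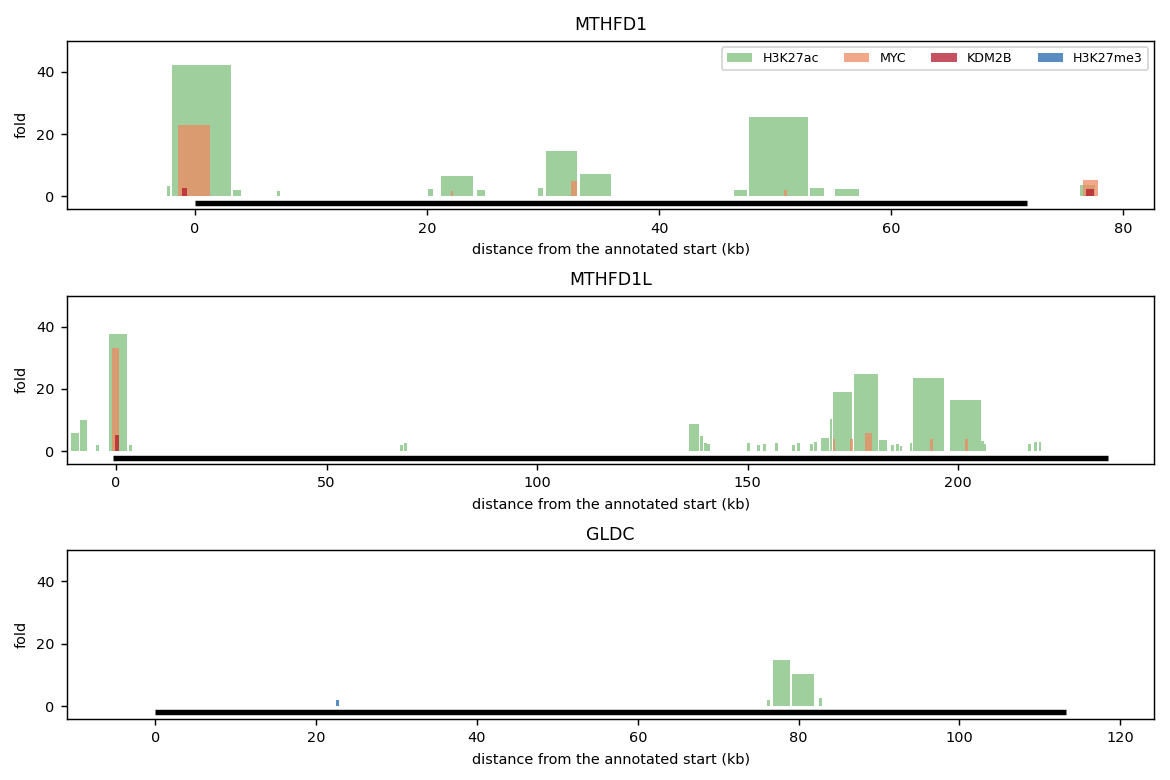
Authors' fold of H3K27ac, MYC, KDM2B and H3K27me3 peaks (bar height, each to be read within its own list) along MTHFD1, MTHFD1L and GLDC, in kb from the start; bar width is peak width, widened where too thin to see, and the black line is the record. MTHFD1L has a second acetylated stretch 161 to 206 kb downstream of its start, and the 4 H3K27ac peaks of GLDC lie far from its start.

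Pseudogene copies could share reads with these genes. Of 21 annotated copies named after members of the group, 0 had a KDM2B, MYC or H3K4me3 peak, and 2, SHMT1P1 and PSAT1P3, had an H3K27ac peak. SHMT1P1 also had 2 H2AK119ub peaks, and GLDCP1 and GCSHP2 each had 1 peak of H2AK119ub and 1 of H3K27me3. Whether reads were shared between copies and genes was not tested. How the authors treated multiply mapped reads is not stated in the labels.

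The rest of the pathway was counted over 26 other genes of folate use, glycine and serine use and folate or serine transport. KDM2B was in the record or 10 kb either side of 18 of 26 (59.4% of all genes), MYC of 23 (78.7%) and H3K4me3 of 24 (82.6%). H3K27ac was there at 24 (78.2%), H2AK119ub at 19 (68%) and H3K27me3 at 14 (50.1%). Of the 24 with a leading site, 16 had KDM2B there (69% of all genes with a site), 22 MYC (91%) and 21 H3K27ac (89.8%). H2AK119ub was at 10 of these sites (39.7%) and H3K27me3 at 5 (12.5%). DMGDH, which oxidises dimethylglycine, and SDS, which deaminates serine, lacked the H3K27ac that all 10 enzymes had. KDM2B folds reached 5.30 at SLC25A32, the mitochondrial folate carrier, and 5.26 at TYMS, which makes thymidylate. Both lay between those of MTHFD1L and PSPH. The highest MYC folds were 40.4 at FPGS, which adds glutamates to folate, 38.9 at the methionine synthase gene MTR and 38.4 at the folate carrier gene SLC19A1, the last with no KDM2B. All 3 were above that of PSAT1.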

How the data were processed

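The members and lists were chosen with earlier results of these data known. Peaks came from the 1 deposited narrow-peak list of each of 6 targets. The submitters' processing notes name hg38 and, as tools, MACS2 2.2.7.1, SAMtools 1.6, Bowtie2 2.4.5 and Trim Galore without its version. Chromatin was digested enzymatically, per the labels' protocols, and library construction started from 5 ng of DNA for KDM2B, 1 ng for MYC and 50 ng for H3K4me3, H3K27me3, H2AK119ub and input. The control and any pooling of libraries before peak calling are not given in the sources used here. In the deposited lists a fold is the authors' ratio to background at the summit, and significance is a −log10 q-value with q up to 0.05. The deposited score is the whole part of 10 times −log10 q in 99.8% to 100% of peaks. Peak starts were raised by 1 bp so that positions count from 1, and ends were kept as deposited. Summits were placed from these starts by the deposited offset. Replicates are libraries the labels number, and nothing says whether they came from separate cultures.

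Gene records came from RefSeq, GRCh38.p14. Starts and strand came from the RefSeq promoter table. Exons, introns and UTRs were not resolved. A peak overlapped a span when at least 1 bp was shared. The leading site is the H3K4me3 peak of highest fold over the record or 1 kb either side, and the highest peak of each target on it gives the fold, rank and summit. Ranks are the percentage of genes, among those with the target at their leading site, with a lower fold. Everything was computed in Python 3.11.15 with pandas 2.3.3 and numpy 2.4.6, and overlaps were tested on simulated intervals. Named genes are all 10 members. Of 26 other pathway genes, those lacking a target that all members have and the 3 of highest KDM2B and MYC fold are named, except 1 that is not reported here. Neighbours are named where they share a leading site; names and peaks given outside that rule were picked with their values in view. The alternatives tried were other flanks (0, 1 and 5 kb), start windows of 500 and 2500 bp, q under 1e-5, the 15000 peaks of highest fold, summits or 50% of a peak for overlap, other leading sites, flanks cut at neighbours and broad marks merged across 3 kb.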

Additional observations from a re-analysis of the deposited data

How the results depend on the processing

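Of 118 alternatives computed, 96 gave a count within 1.5 times that reported, and 76 gave the identical count. No count for KDM2B, MYC, H3K4me3 or H3K27ac moved further than that. All 22 that did concern the Polycomb marks. In the 10 kb window, H2AK119ub was at 3 genes with no flank and 1 with the 15000 peaks of highest fold, against 5 reported. H3K27me3, also 5, was at 3 with no flank, with a flank of 1 kb and with q under 1e-5, and at 0 with the 15000 peaks. At the leading site H2AK119ub, reported at 4, was at 1 with q under 1e-5, the 15000 peaks or the MYC peak as the site, and at 2 with the H3K27ac peak as the site. H3K27me3 there, reported at 3, was at 1 with q under 1e-5, with the MYC or H3K27ac peak as the site and with the cut site, and at 0 with the 15000 peaks. Around the start H2AK119ub, reported at 1, was at 0 with 500 bp or q under 1e-5 and at 3 with 2500 bp, and H3K27me3, reported at 1, was at 2 with 2500 bp and 0 with q under 1e-5. H3K27me3 coverage above the median, reported at 5, was at 3 with no flank and with q under 1e-5. The cause of these moves was not tested.

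KDM2B at the leading site was at 7 genes with q under 1e-5, which left out PHGDH and MTHFD1, and SHMT2 then counted only through the peak at NXPH4. The KDM2B peak inside the SHMT2 record had −log10 q of 1.84. At the same threshold KDM2B was in the 10 kb window of 6 genes, against 9 reported. It was within 1 kb of a start at 5, against 7 reported. No paired analysis was possible because each target has 1 deposited list, which does not resolve the libraries, and leaving out a library was not possible for the same reason. Depth is unknown and folds were not compared between lists.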

Other observations

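The share of a gene covered by a mark depended on how split peaks were joined. With peaks merged across 3 kb, H3K27me3 covered 100% of the PHGDH window and H2AK119ub 62.0%, while GCSH moved to 17.4% H3K27me3 and MTHFD2 to 37.1%. PSAT1, PSPH and MTHFD1L stayed at 0 for both marks under that setting, with no flank and with q under 1e-5.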
